A study of Homo sapiens with 6 samples.

Results

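The genes described here are 45 genes of DNA replication initiation and elongation. They were chosen by symbol, as every row of the deposited expression table whose gene name is one of 45 names. All 45 were among the 15897 genes listed, each in a single row, and all 45 were among the 14068 genes tested. They cover origin recognition and licensing (8 genes), the MCM2-7 helicase core (6), helicase activation (8), DNA polymerases and primase (9), the sliding clamp with its loader, the single-strand binding protein RPA and Okazaki fragment joining (11), and nucleotide supply (3).

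RNA was sequenced from 6 libraries of H1650, a human lung adenocarcinoma cell line, to compare cells with and without depletion of SETD2, the enzyme that trimethylates lysine 36 of histone H3. The 3 control libraries carried the label wild type, and the other 3 carried the label shSETD2, for a short hairpin RNA against SETD2. According to the study's methods, hairpins were cloned in the PLKO.1-TRC vector and stable lines were made with lentivirus. The sources used here do not say whether the 3 shSETD2 libraries hold different hairpins or 1, whether the control cells carried a vector, or whether libraries came from separate cultures, so p-values measure the spread between these libraries only.

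Each value is in FPKM, a fragment count divided by transcript length and by the number of mapped fragments of the library, which is a level per length and can be set side by side between genes of 1 library. The FPKM of a library summed to between 218768.9 and 224603.3, and depth cannot be read from FPKM. Pearson's r between libraries, a description, lay between 0.982 and 0.990 within a group and between 0.701 and 0.707 across groups. SETD2 itself was at 18.0, 10.2 and 17.6 FPKM in the control libraries and at 8.97, 8.09 and 12.2 FPKM in the shSETD2 libraries. The groups overlapped, since the second control library lay below the third shSETD2 library, and the difference of -0.58 ± 0.24 (log2, SE) did not pass the threshold (limma, adjusted p = 0.0641). Leaving out the second control library gave -0.83 (limma, adjusted p = 6.66e-03), and leaving out the third shSETD2 library gave -0.73 (limma, adjusted p = 0.0420). Leaving out any other single library gave -0.53 to -0.45 and did not pass (limma, adjusted p = 0.149 to 0.181). With median ratio scaling, described below, the change was -0.27 (limma, adjusted p = 0.343). "Control" and "shSETD2" below therefore mean the libraries that carry those labels.

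Markers of cell type also moved between the labelled groups. Of 14 lung lineage markers 3 were listed, with a sum of 32.1 to 34.2 FPKM in control and 44.7 to 48.8 FPKM in shSETD2 libraries. The rise of the sum came from LPCAT1, at 16.9 to 19.2 and then at 36.4 to 40.6 FPKM. ABCA3 went the other way, from 13.3 to 13.7 FPKM in control to 8.18 to 8.51 FPKM in shSETD2 libraries. NKX2-1, which defines the lung lineage, also fell, from 1.44 to 1.80 FPKM in control to 0 in every shSETD2 library. No surfactant protein gene was listed. The 10 listed of 12 epithelial markers summed to 14.9 to 17.2 FPKM in control and 408.3 to 461.7 FPKM in shSETD2 libraries, and keratins made up most of the rise, with KRT18 at 9.11 to 10.8 and then at 236 to 266 FPKM. CDH1 went the other way, from 0.860 to 1.52 FPKM in control to 0.011 to 0.014 FPKM in shSETD2 libraries, as did EPCAM, from 0.582 to 0.830 FPKM to 0.166 to 0.301 FPKM, and CLDN7, which was under 0.3 FPKM throughout. The 9 listed of 10 mesenchymal markers summed to 108 to 123 and 170 to 180 FPKM. That rise was mostly in VIM, at 60.6 to 76.7 and then at 129 to 138 FPKM, while TWIST1 was at 7.34 to 8.37 FPKM in control and at 0 in every shSETD2 library, and SPARC, COL1A1 and ZEB2 were lower in every shSETD2 library than in any control library. The markers named here were picked from the lists after their values were seen. For the 10 listed of 12 renal and embryonic kidney markers the sums were 46.8 to 49.6 and 60.2 to 71.3 FPKM, with LIN28B, SALL1, SIX2 and EYA1 at 0 in every shSETD2 library. These differences coincide with the labels in every library, so their part in the results below was not tested and cannot be told apart from that of the hairpin.

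Replication starts at origins, where the origin recognition complex (ORC) with CDC6 and CDT1 loads the MCM2-7 ring onto DNA in G1. The DDK and CDK kinases then turn the ring into an active helicase by recruiting CDC45 and the GINS complex, after which primase, polymerases alpha, delta and epsilon and the clamp PCNA copy both strands. Most of these genes are transcribed at the G1 to S transition under E2F factors, and proliferating cells such as tumour lines express them together.

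The replication genes were mostly lower in the shSETD2 libraries, but by unequal amounts. Of the 45 genes, 36 were lower, 2 were higher (MCM5 and TYMS) and 7 passed in neither direction at a limma adjusted p under 0.05. Over all 14068 genes 51.8% were called lower, 26.8% higher and 78.6% in either direction, so a call by itself was common. The median log2 fold change of FPKM + 1 was -0.56 over the 45 genes and -0.29 over all genes tested, a difference of -0.27, and 33 of the 45 genes lay below the median of all genes. All 3 shSETD2 libraries lay below all 3 control libraries for 37 of the genes and above them for 2, against 53.0% and 27.9% of all genes tested. The summed FPKM of the 45 genes was 1237, 1255 and 1230 in the control libraries and 826, 845 and 822 in the shSETD2 libraries, or 67.0% of the control mean. In bulk RNA, fewer cells that express a gene and less RNA per cell cannot be told apart.

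The count depended on how the libraries were scaled. With median ratio scaling, which brought the median change of all genes to -0.03, 23 of the 45 genes were lower, 9 were higher and 13 passed in neither direction, while 39.1% of all genes were called lower and 37.1% higher. The same 23 genes were called lower with both scalings, and the other 13 were called lower with FPKM as deposited but not with median ratio scaling. Values below are for FPKM as deposited, and the text says where a direction turned with median ratio scaling. With 3 libraries against 3, the smallest p of an exact two-sided permutation test is 0.1, which every gene whose groups did not overlap reached.

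**Figure D1:**
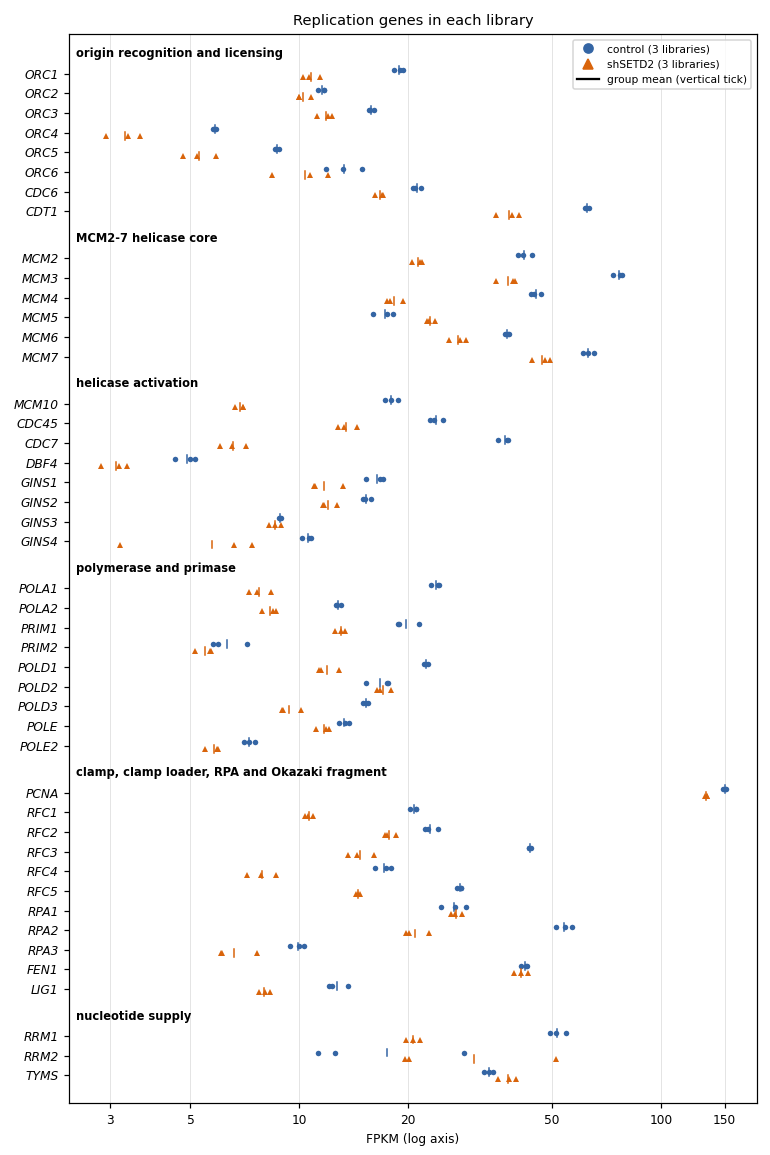
FPKM (log axis) of each of the 45 replication genes in each library, grouped by role, with blue circles for the 3 control libraries, orange triangles for the 3 shSETD2 libraries and a vertical tick at each group mean. The triangles lie left of the circles for 37 genes, and RRM2 shows 1 library far to the right in each group.

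E2F factors bind a short sequence close to the start of many replication genes. A few promoters that hold such a sequence are printed here, from genes with large, intermediate and small changes. E2F sites were searched as TTTCCCGC, TTTGGCGC, TTTCGCGC or TTTGCCGC on both strands, in RefSeq promoter windows of 300 bases (GRCh38.p14, from 250 bases before to 50 bases after the start). Overlapping matches were counted separately. The windows of 39 of the 45 genes were found, and 19 of these genes held a match. By window the share was 38.8% of 49, against 3.32% of all 35116 windows and 4.93% of the 14484 windows of tested genes. Below are the 160 bases before the start of 6 genes, on the strand of the gene, with every match in capitals. All 6 were picked from the genes with a match. For CDC7 the second of its windows is shown, since the first held no match. CDC7, POLA1 and RFC3 had the lowest changes of all members, MCM6 had an intermediate change, PCNA had a small one, and TYMS was called higher.
CDC7: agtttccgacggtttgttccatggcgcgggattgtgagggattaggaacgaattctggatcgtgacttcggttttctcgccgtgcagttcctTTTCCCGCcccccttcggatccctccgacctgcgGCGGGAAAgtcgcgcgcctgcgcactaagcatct
POLA1: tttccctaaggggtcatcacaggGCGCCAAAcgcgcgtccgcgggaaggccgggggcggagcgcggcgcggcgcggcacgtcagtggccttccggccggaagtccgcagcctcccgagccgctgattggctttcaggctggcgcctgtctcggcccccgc
RFC3: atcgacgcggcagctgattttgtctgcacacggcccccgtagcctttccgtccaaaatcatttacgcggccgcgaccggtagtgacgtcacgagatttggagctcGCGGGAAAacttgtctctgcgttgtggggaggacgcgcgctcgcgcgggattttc
MCM6: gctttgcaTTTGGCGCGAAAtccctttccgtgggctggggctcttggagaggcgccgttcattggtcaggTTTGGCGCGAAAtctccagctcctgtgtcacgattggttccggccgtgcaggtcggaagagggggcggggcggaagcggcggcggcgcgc
PCNA: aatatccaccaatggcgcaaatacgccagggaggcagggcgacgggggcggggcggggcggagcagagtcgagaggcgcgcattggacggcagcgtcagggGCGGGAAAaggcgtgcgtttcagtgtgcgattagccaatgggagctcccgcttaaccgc
TYMS: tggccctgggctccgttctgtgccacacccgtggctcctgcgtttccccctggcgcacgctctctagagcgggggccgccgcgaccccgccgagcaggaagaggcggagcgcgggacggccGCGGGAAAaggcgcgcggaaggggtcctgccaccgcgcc

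In GRCh38.p14 these stretches lie at chr1:91500952-91501111 (plus strand) for CDC7, chrX:24693758-24693917 (plus) for POLA1 and chr13:33817989-33818148 (plus) for RFC3. Those of MCM6, PCNA and TYMS lie at chr2:135876444-135876603 (minus), chr20:5126623-5126782 (minus) and chr18:657493-657652 (plus). Counted from the start, MCM6 held 4 matches, in overlapping pairs that begin at -152 and -90, CDC7 held 2, at -68 and -34, and PCNA held 1, at -59. The 19 genes with a match had a median log2 fold change of -0.44, with 17 lower and 1 higher, and the 20 without one had a median of -0.59, with 14 lower and 0 higher, a description with no test. Of 2 other motifs searched on both strands, CCAAT, the letters bound by NF-Y, was in 55.1% of the replication gene windows and 34.6% of all windows. TTTGAA, the core letters of the CHR element of G2 and M phase genes, was in 4.08% (2 of 49 windows) and 15.2%. Among the windows of tested genes 34.9% held CCAAT and 10.3% held TTTGAA. These shares describe letters in a window and not binding.

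The licensing genes were lower in 7 of 8 cases, with a median log2 fold change of -0.50, and their summed FPKM fell from 157 ± 1.89 to 107 ± 3.25 (SD, n = 3). CDT1, which brings the MCM ring to the origin, was the most abundant of them, at 63.1, 62.1 and 61.6 FPKM in control and 38.6, 34.9 and 40.5 FPKM in shSETD2 libraries (log2 fold change -0.70 ± 0.06, SE, adjusted p = 4.68e-05). CDC6, the ATPase that joins ORC to load MCM2-7, was at 20.9, 21.7 and 20.7 FPKM in control and 16.97, 17.01 and 16.1 FPKM in shSETD2 libraries. Both genes were lower in every shSETD2 library than in any control library. The CDC6 change of -0.32 was close to the median of all genes and became -0.0016 with median ratio scaling (limma, adjusted p = 0.973).

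Among the ORC subunits ORC1 and ORC4 had the largest falls, to 57.0% and 56.7% of control. ORC1, the largest subunit, was at 18.9, 18.3 and 19.3 FPKM in control and 10.2, 10.6 and 11.4 FPKM in shSETD2 libraries (limma, adjusted p = 1.97e-05). ORC4, the subunit at the lowest level in both groups, went from 5.83 ± 0.05 to 3.31 ± 0.36 FPKM (SD, n = 3), and ORC5 from 8.66 ± 0.13 to 5.29 ± 0.56 FPKM, with no overlap in either gene. ORC3 was lower by a smaller amount (75.01% of control) and lost its call with median ratio scaling (-0.08, adjusted p = 0.172), and ORC2 was at 88.7% of control. The ORC2 difference of -0.16 was called lower (limma, adjusted p = 0.0220), turned to 0.15 and higher with median ratio scaling (adjusted p = 0.0272), and lost its call without control library 2 or 3 or shSETD2 library 1 or 3 (adjusted p = 0.0633 to 0.0700). ORC6 overlapped between groups, at 14.9, 11.8 and 13.2 FPKM in control and 10.7, 8.41 and 12.0 FPKM in shSETD2 libraries (limma, adjusted p = 0.0593), and passed without shSETD2 library 3 (adjusted p = 0.0285).

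The 6 subunits of the MCM2-7 ring, which form a single hetero-hexamer, moved by different amounts and in both directions. MCM4 fell the most, from 44.7, 46.6 and 43.6 FPKM in control to 19.4, 17.8 and 17.5 FPKM in shSETD2 libraries (log2 fold change -1.26 ± 0.05, adjusted p = 1.79e-06). MCM3 was at 78.1, 77.1 and 73.8 FPKM and then at 39.4, 35.0 and 39.0 FPKM, and MCM2 at 40.2, 43.95 and 41.4 FPKM and then at 21.6, 20.5 and 21.8 FPKM, close to 50% of control in both cases (49.5% and 50.9%). These were the clear falls of the ring, each several times the spread between libraries and each called with both scalings.

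MCM6 and MCM7 fell by less. MCM6 went from 37.6 ± 0.43 to 27.5 ± 1.43 FPKM and MCM7 from 63.0 ± 2.18 to 47.0 ± 2.74 FPKM (SD, n = 3), each with no overlap between groups. With median ratio scaling their changes were -0.11 and -0.09 and no longer passed (limma, adjusted p = 0.0664 and 0.196).

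MCM5 went the other way. It was at 18.1, 17.5 and 16.01 FPKM in control and 23.7, 22.5 and 22.8 FPKM in shSETD2 libraries, 134% of the control mean (log2 fold change 0.40 ± 0.06, adjusted p = 6.09e-04). No shSETD2 library reached down to the control range, and the call was the same under all 17 alternatives of scaling, filtering and libraries. With MCM3 lower and MCM5 higher, the FPKM ratio of MCM3 to MCM5 went from between 4.31 and 4.61 in the control libraries to between 1.56 and 1.71 in the shSETD2 libraries. The gene lies at chr22:35796056-35821423 (GRCh37, plus strand), where the median change of the other 360 genes tested on the chromosome was -0.28.

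**Figure D2:**
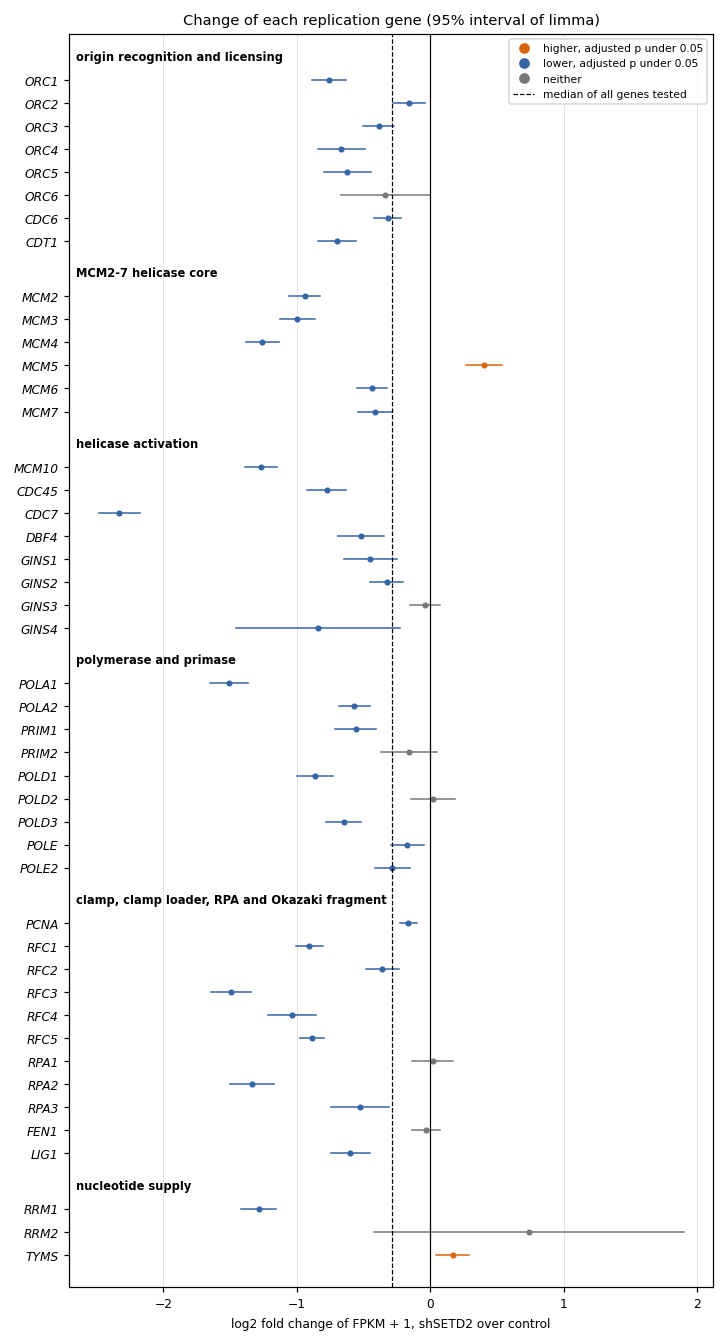
Log2 fold change of FPKM + 1 (shSETD2 over control, horizontal axis) of each of the 45 replication genes, with its 95% interval from limma, coloured by call, and a dashed line at the median of all 14068 genes tested (-0.29). CDC7 lies farthest to the left at -2.33, and MCM5 and TYMS are the genes called higher.

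Helicase activation held the largest single change. CDC7, the kinase subunit of DDK that phosphorylates MCM2-7 to fire origins, was at 35.4, 37.6 and 37.8 FPKM in control and 6.51, 7.13 and 6.03 FPKM in shSETD2 libraries. The groups were far apart: the shSETD2 mean was 17.7% of the control mean, 5.63-fold lower (log2 fold change -2.33 ± 0.06, 95% interval -2.49 to -2.17, adjusted p = 3.23e-07). Of all genes tested, 2.27% had an equal or lower change. The gene lies at chr1:91966450-91991321 (GRCh37, plus strand), and its promoter with 2 E2F matches is printed above.

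DBF4, the activating subunit without which CDC7 is inactive, changed less than its kinase. It was at 5.15, 4.98 and 4.54 FPKM in control and 2.82, 3.34 and 3.17 FPKM in shSETD2 libraries (63.6% of control, adjusted p = 5.88e-04), the lowest level of all 45 genes in both groups. The FPKM ratio of CDC7 to DBF4 was 6.88, 7.55 and 8.31 in control and 2.31, 2.14 and 1.90 in shSETD2 libraries, with no overlap. A ratio within a library does not change when all values of the library are multiplied by a common factor.

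MCM10, which helps the activated helicase open the origin, was at 18.0, 17.2 and 18.7 FPKM in control and 6.98, 6.62 and 7.002 FPKM in shSETD2 libraries (38.2% of control, log2 fold change -1.27 ± 0.05, adjusted p = 1.42e-06). CDC45, the helicase cofactor, was at 23.0, 25.01 and 23.5 FPKM and then at 14.4, 13.3 and 12.8 FPKM (56.6% of control, adjusted p = 2.95e-05). Neither gene overlapped between the groups, and both were called lower with both scalings.

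The 4 GINS subunits, which complete the CDC45-MCM-GINS helicase, did not move by 1 amount. GINS1 and GINS2 were at 71.7% and 78.5% of control and were called lower, but their changes were -0.14 and -0.01 with median ratio scaling (adjusted p = 0.153 and 0.818). GINS3 was at 8.81, 8.92 and 8.82 FPKM in control and 8.91, 8.55 and 8.23 FPKM in shSETD2 libraries, which overlapped, with a 95% interval of the log2 change of -0.15 to 0.07 (adjusted p = 0.421). Its change turned to 0.26 and higher with median ratio scaling (adjusted p = 1.99e-03). GINS4 was at 10.2, 10.8 and 10.6 FPKM in control and 7.40, 6.603 and 3.20 FPKM in shSETD2 libraries, so the size of its fall rested partly on the third shSETD2 library. Without that library GINS4 was still called lower, and over all alternatives its change lay between -1.03 and -0.53. The GINS4 call (adjusted p = 0.0208) was lost without any 1 of the control libraries (adjusted p = 0.0512 to 0.0600), with median ratio scaling (adjusted p = 0.0924) and with an ordinary linear model per gene (adjusted p = 0.0715).

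Of the 9 polymerase and primase genes, 7 were lower and 2 (PRIM2 and POLD2) passed in neither direction. POLA1, the catalytic subunit of polymerase alpha that extends primers on both strands, was at 24.2, 24.4 and 23.1 FPKM in control and 7.27, 8.36 and 7.62 FPKM in shSETD2 libraries (32.4% of control, log2 fold change -1.51 ± 0.06, adjusted p = 1.37e-06). Its partners changed less: POLA2, the accessory subunit, was at 64.9% and PRIM1, the catalytic primase subunit, at 66.2% of control, both without overlap. PRIM2, the large primase subunit, was at 7.16, 5.77 and 5.95 FPKM and then at 5.70, 5.13 and 5.66 FPKM, lower in each shSETD2 library but not past the threshold (adjusted p = 0.127). The PRIM2 change of -0.16 turned to 0.12 with median ratio scaling and did not pass there either (limma, adjusted p = 0.235). PRIM2 shares 12.9% of its exon bases with the annotated pseudogene PRIM2BP, so its value is uncertain.

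Within polymerase delta, which copies the lagging strand, the subunits also parted. POLD1, the catalytic subunit, was at 22.1, 22.5 and 22.7 FPKM in control and 11.4, 11.5 and 12.9 FPKM in shSETD2 libraries (53.1% of control, adjusted p = 1.43e-05), and POLD3 fell to 61.4% of control. POLD2 overlapped, at 17.5, 15.3 and 17.6 FPKM and then at 16.4, 17.9 and 16.7 FPKM, with an interval of -0.14 to 0.19 (adjusted p = 0.785). POLD2 became higher with median ratio scaling (0.34, adjusted p = 3.64e-03).

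The leading strand polymerase epsilon changed little. POLE, its catalytic subunit, was at 12.8, 13.3 and 13.7 FPKM in control and 12.1, 11.2 and 11.9 FPKM in shSETD2 libraries (88.0% of control, adjusted p = 0.0176). This was called lower, turned to 0.14 and higher with median ratio scaling (adjusted p = 0.0458), and lost its call without control library 3 (adjusted p = 0.0575). POLE2, which binds POLE, was at 79.7% of control (log2 fold change -0.28, adjusted p = 2.50e-03) and at 0.0062 with median ratio scaling (adjusted p = 0.919).

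PCNA, the clamp that tethers polymerases to DNA, was the most abundant of the 45 genes and had the smallest standard error. It was at 148.5, 150.2 and 151 FPKM in control and 132, 134 and 134 FPKM in shSETD2 libraries, 89.1% of control with no overlap (log2 fold change -0.17 ± 0.03, adjusted p = 1.08e-03). The direction turned with median ratio scaling, to 0.17 and called higher (adjusted p = 1.36e-03), since the fall was smaller than that of the median gene.

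The 5 subunits of replication factor C, the loader that opens PCNA around DNA, were all called lower. RFC3 fell the most, from 43.7, 43.1 and 43.1 FPKM in control to 13.7, 16.1 and 14.5 FPKM in shSETD2 libraries (34.0% of control, log2 fold change -1.50 ± 0.06, adjusted p = 1.77e-06). RFC4 was at 17.4, 16.2 and 17.9 FPKM and then at 7.17, 8.61 and 7.83 FPKM (45.9% of control). RFC1, the large subunit, and RFC5 were at 51.1% and 52.4% of control, and RFC2 was at 77.0% of control. The RFC2 change of -0.36 became -0.04 with median ratio scaling (adjusted p = 0.505), while those of the other 4 subunits remained called lower.

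RPA, the trimer that coats single-stranded DNA, held a pair of subunits that moved very differently. RPA2 was at 56.6, 54.3 and 51.3 FPKM in control and 22.8, 20.04 and 19.7 FPKM in shSETD2 libraries (38.5% of control, log2 fold change -1.34 ± 0.07, adjusted p = 4.46e-06). RPA1, the large DNA-binding subunit, was at 24.7, 26.9 and 28.8 FPKM and then at 26.9, 28.1 and 26.3 FPKM, which overlapped (interval -0.14 to 0.17, adjusted p = 0.802). The ratio of RPA2 to RPA1 was 2.03 ± 0.26 in control and 0.769 ± 0.07 in shSETD2 libraries (SD, n = 3). RPA1 was higher with median ratio scaling (0.34, adjusted p = 2.50e-03) and lower with quantile normalization (-0.20, adjusted p = 0.0377), so no direction can be given for it. RPA3, the small subunit, was at 66.7% of control (adjusted p = 1.62e-03), with -0.23 and an adjusted p = 0.0519 under median ratio scaling.

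Of the enzymes that finish Okazaki fragments, LIG1, the ligase, was at 12.0, 13.7 and 12.3 FPKM in control and 7.71, 8.02 and 8.30 FPKM in shSETD2 libraries (63.2% of control, adjusted p = 1.21e-04). FEN1, the flap nuclease that trims them, was at 42.6, 42.3 and 41.1 FPKM and then at 42.8, 39.3 and 40.9 FPKM. The FEN1 groups overlapped, with an interval of -0.14 to 0.07 (adjusted p = 0.484), and its change was 0.29 and called higher with median ratio scaling (adjusted p = 9.24e-04) and -0.29 and called lower with quantile normalization (adjusted p = 6.63e-04).

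The 3 genes of nucleotide supply gave 1 lower, 1 higher and 1 gene in neither class. RRM1, the large subunit of ribonucleotide reductase, which makes deoxyribonucleotides, was at 51.4, 49.3 and 54.5 FPKM in control and 20.6, 19.7 and 21.6 FPKM in shSETD2 libraries (39.9% of control, log2 fold change -1.29 ± 0.05, adjusted p = 1.87e-06). RRM2, its small and cell cycle regulated subunit, was at 12.5, 28.5 and 11.3 FPKM in control and 19.6, 51.2 and 20.1 FPKM in shSETD2 libraries. The second library of each group stood far above the other two for RRM2, and the groups overlapped (log2 fold change 0.74 ± 0.48, adjusted p = 0.199). Without both of these libraries, an alternative chosen after the values were seen, the change was 0.69 (limma, adjusted p = 1.49e-03). RRM2 has 3 annotated pseudogenes named after it, which its reads could be split with.

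TYMS, thymidylate synthase, which makes dTMP, was at 33.5, 34.3 and 32.4 FPKM in control and 37.9, 35.4 and 39.7 FPKM in shSETD2 libraries, 113% of control and above control in every library (log2 fold change 0.17 ± 0.05, adjusted p = 0.0229). The TYMS call was lost without control library 1 or 3 or shSETD2 library 1 or 3 (adjusted p = 0.0552 to 0.0719), and the change turned to -0.09 with quantile normalization (adjusted p = 0.139). It shares 39.9% of its exon bases with ENOSF1 on the opposite strand. The library kit marks strand, but whether strand was used when counting is not given in the sources used here.

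Because subunits of 1 complex act in fixed numbers, each subunit was also set against the mean FPKM of its own complex in the same library. Multiplying all values of a library by a common factor does not change this proportion, although quantile normalization can. Of 35 subunits in 9 complexes, 26 had proportions that did not overlap between the groups, 13 above and 13 below control. Groups without overlap were usual in these data, since the FPKM of 53.0% of all genes tested was below and of 27.9% above control in this way. These are descriptions with no test, and the proportions of 1 complex are not independent, since they have a fixed sum. In the MCM ring, MCM5 went from 0.367 ± 0.018 to 0.789 ± 0.013 of the mean subunit, and MCM4 from 0.960 ± 0.022 to 0.625 ± 0.027 (SD, n = 3). The ring as a whole became more even, with its highest subunit 4.31 to 4.61 times its lowest in the control libraries and 2.47 to 2.73 times in the shSETD2 libraries. The lowest subunit was MCM5 in control and MCM4 in shSETD2 libraries.

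In the MCM ring, polymerase alpha-primase, polymerase delta, RFC and RPA, the highest subunit was 1 gene in every control library and another in every shSETD2 library. In polymerase alpha-primase POLA1 went from 1.53 ± 0.018 to 0.896 ± 0.048 of the mean subunit, and PRIM1 took its place as the highest at 1.51 ± 0.030. In RFC, RFC3 went from 1.64 ± 0.031 to 1.12 ± 0.074 and RFC2 from 0.872 ± 0.027 to 1.35 ± 0.073. In RPA, RPA1 went from 0.887 ± 0.076 to 1.49 ± 0.040 and replaced RPA2 as the highest. The proportions of the 2 polymerase epsilon subunits overlapped between the groups. In ribonucleotide reductase the ratio of RRM1 to RRM2 was 4.10, 1.73 and 4.83 in control and 1.05, 0.385 and 1.07 in shSETD2 libraries, so the groups did not overlap although RRM2 alone did.

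**Figure D3:**
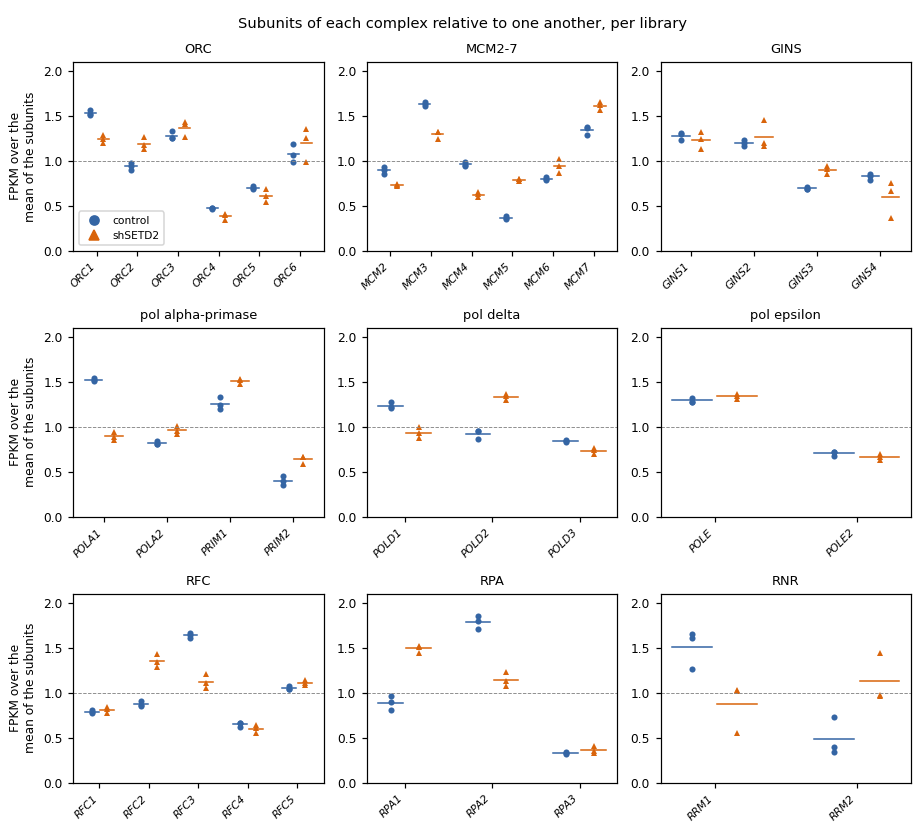
FPKM of each subunit over the mean FPKM of the subunits of its complex in the same library (vertical axis, no unit), for 9 replication complexes, with circles for control libraries, triangles for shSETD2 libraries and bars at group means. MCM5, RFC2, POLD2 and RPA1 lie higher in shSETD2 libraries, and MCM3, POLA1, RFC3 and RPA2 lie lower.

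Other genes of the same pathway, 69 in all, were set beside the 45 genes. Of these, 41 were lower, 10 were higher and 18 passed in neither direction, with a median log2 fold change of -0.38, closer to the -0.29 of all genes than the -0.56 of the 45 genes was. With median ratio scaling 32 were lower and 26 higher, against 39.1% and 37.1% of all genes tested. Licensing control and origin firing (13 of 18 lower, 2 higher, median -0.63) and fork proteins (16 of 24 lower, 2 higher, median -0.57) had medians near that of the 45 genes. Nucleotide metabolism (3 of 10 lower, 3 higher, median -0.04) and the E2F, RB and S phase cyclin genes (9 of 17 lower, 3 higher, median -0.21) did not.

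The largest falls among these genes included direct partners of genes described above. CDC25A, the phosphatase that activates CDK2 for origin firing, was at 42.9 ± 0.50 FPKM in control and 8.62 ± 0.12 FPKM in shSETD2 libraries (SD, n = 3, log2 fold change -2.19). GMNN, the inhibitor of CDT1, was at 22.1, 23.1 and 23.8 FPKM in control and 8.57, 9.51 and 9.18 FPKM in shSETD2 libraries (adjusted p = 2.17e-06). CDT1 and its inhibitor thus both fell, GMNN by more, and the ratio of CDT1 to GMNN went from between 2.58 and 2.86 in control to between 3.67 and 4.51 in shSETD2 libraries.

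At the fork, RNASEH2A, the catalytic subunit of the nuclease that removes ribonucleotides from DNA, fell to 23.2% of control. TIPIN, of the fork protection complex, and ATAD5, which unloads PCNA, were at 29.2% and 32.6% of control. Of the transcription factors, TFDP2, a dimer partner of E2F proteins, was at 23.8% of control and E2F5, a repressive E2F, went from 3.93 ± 0.25 to 0.474 ± 0.11 FPKM.

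The 8 genes with the largest rises were led by TK1, thymidine kinase, at 17.3, 20.3 and 21.6 FPKM in control and 54.6, 54.6 and 52.0 FPKM in shSETD2 libraries (272% of control, log2 fold change 1.41 ± 0.08, adjusted p = 7.85e-06). E2F7, a repressor of E2F targets, was at 252% of control and CUL4A, the scaffold of the ligase that degrades CDT1, at 224%. SAMHD1, which hydrolyses deoxyribonucleotides, was at 190% of control, from 13.3 ± 0.19 to 25.3 ± 0.98 FPKM. POLD4, the small subunit of polymerase delta, was at 224% but at a low level, from 1.35 ± 0.15 to 3.03 ± 0.06 FPKM. Smaller rises were those of CTPS1, which makes CTP, RBL1, an RB family protein, and TOP1, topoisomerase I (128%, 125% and 123% of control). All of these changes passed with both scalings, while those of CTPS1 and TOP1 did not pass with quantile normalization (adjusted p = 0.0861 and 0.683).

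**Figure D4:**
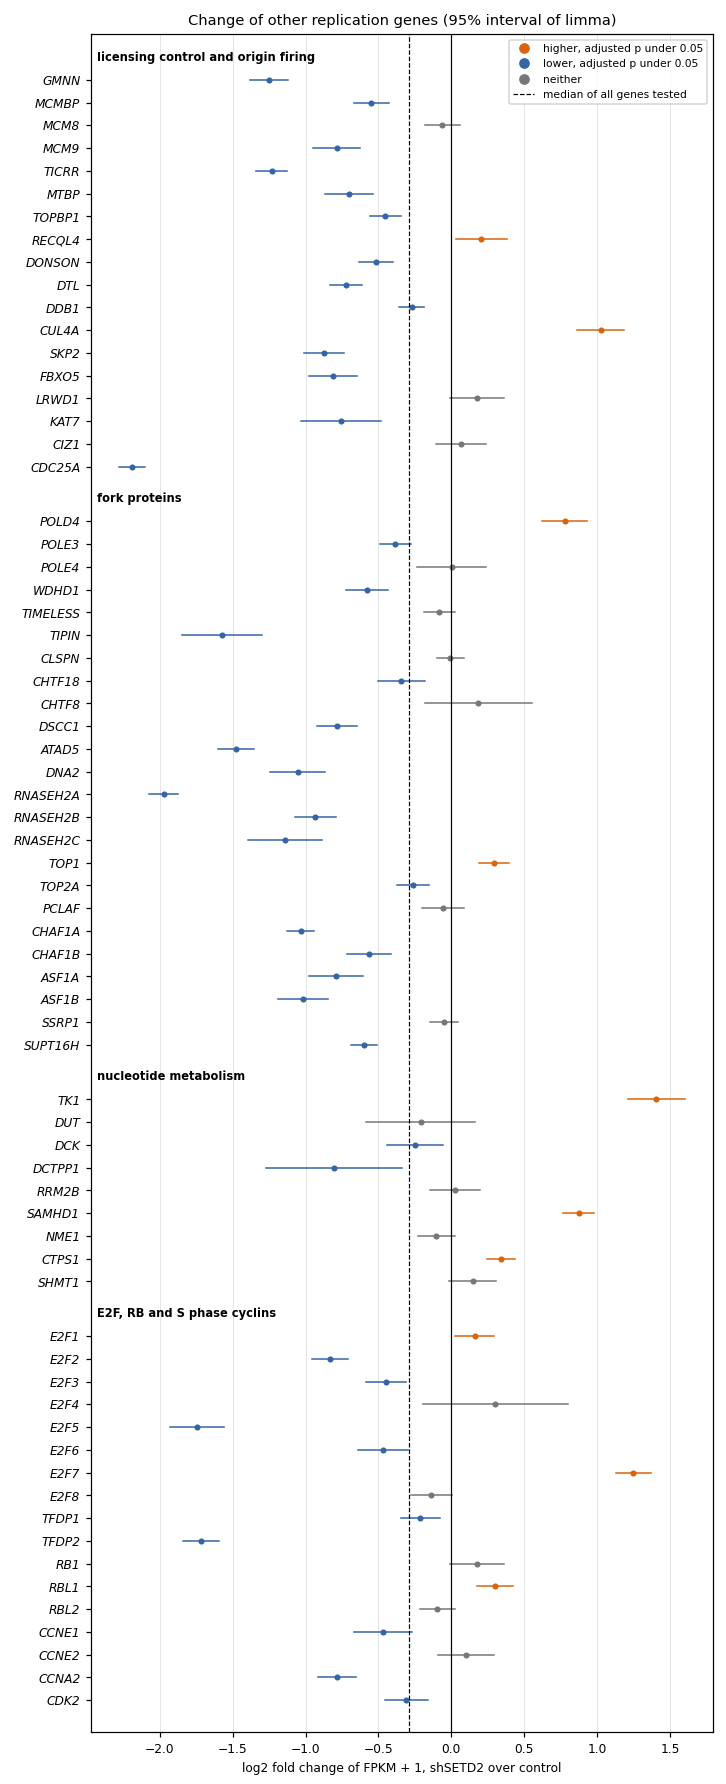
Log2 fold change of FPKM + 1 (shSETD2 over control, horizontal axis) of 68 of the 69 other replication genes, with 95% intervals from limma, coloured by call and grouped by role, and a dashed line at the median of all genes tested (-0.29). CDC25A lies farthest to the left at -2.19 and TK1 farthest to the right at 1.41.

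The 25th and 75th percentiles of all genes tested were -0.83 and 0.30, and 2 of the 45 genes (MCM5 and RRM2) lay above the latter. At or below a change of -0.5 lay 55.6% of the 45 genes and 39.3% of all genes tested. At or below -1.0 the shares were 17.8% and 18.8%, so large falls were no more common among the 45 genes than among all genes. The percentile of CDC7 among all genes was 2.27, and those of POLA1 and RFC3 were 7.73 and 7.90.

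**Figure D5:**
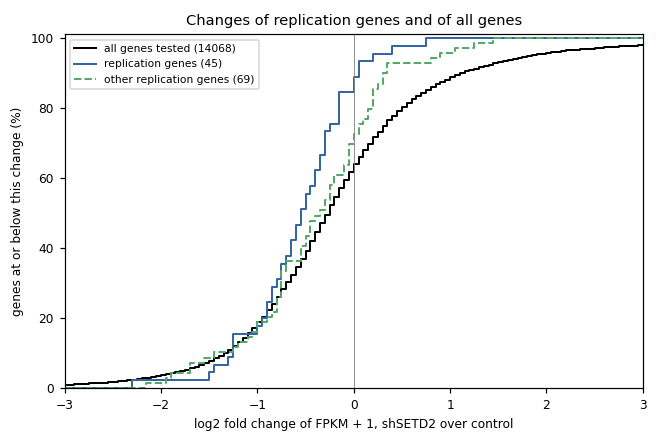
Cumulative share of genes (vertical axis, %) at or below a log2 fold change of FPKM + 1 (horizontal axis, shown from -3 to 3), for all 14068 genes tested (black), the 45 replication genes (blue) and 69 other replication genes (green, dashed). The blue line lies above the black one over most of the range right of -1 and reaches the top at 0.74.

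The genes are scattered over 19 chromosomes, and 35 of the 45 had a change below the median of the other genes tested on their own chromosome. RFC3, at chr13:34392186-34540695 (GRCh37), lies on a chromosome whose other 256 genes had a median of -0.73, the lowest median beside any of the 45 genes, and its own -1.50 differed from that by -0.77. POLA1, at chrX:24712036-25015103, differed by -0.98 from a median of -0.53. PCNA and GINS1 lie on chromosome 20, where the other 371 genes had a median of 0.40, and their changes of -0.17 and -0.45 differed from it by -0.56 and -0.85.

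Some values could be shared with other loci. In the GENCODE annotation of GRCh37, 11 of the 45 genes have pseudogenes named after them, among them PCNA, DBF4 and RPA2 with 3 each, and 19 share exon bases with a gene on the opposite strand. Another gene on the same strand, which strand cannot separate, shares exon bases with 7 of the 45, such as 16.8% of those of POLA2, 10.9% of those of PRIM1 and 8.63% of those of POLD1. For MCM2 the shared part was 23.6% of its exon bases, with an antisense long noncoding RNA.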

How the data were processed

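The authors mapped reads to hg19 (GRCh37) with HISAT2, quantified genes with Ballgown and deposited FPKM per gene and library in 2 tables with identical values. The tool versions are not given in the sources used here. The second table also holds the authors' fold changes and p-values, which were not used. Groups were taken from the labels. Genes whose FPKM averaged 0.5 or more across the 6 libraries were tested on log2(FPKM + 1) with limma 3.58.1 (lmFit, eBayes with an intensity trend; R 4.3.3), 2 groups without covariates, and Benjamini-Hochberg adjustment over all 14068 genes at 0.05. Every adjusted p in the text is from this fit unless another scaling is named. On this scale the change of low genes is understated. The fit without scaling was tested on simulated data in which a small share of genes changed, equally in both directions. That test does not bear on the choice of scaling or on data in which most genes change. The number of fragments behind a value is unknown, so precision is given by the spread over 3 libraries. Same-numbered libraries did not deviate together (Pearson's r of deviations from the group means -0.024, 0.018 and -0.0077 over genes), so replicate numbers were not used for pairing. Alternatives were other pseudocounts, filters, scalings and fits, and leaving out libraries. The 45 members and all gene lists were chosen with earlier results of these data known. All 45 genes, SETD2 and, of the other lists, the 8 largest called changes in each direction are named, except 1 gene that is not reported here. Promoters come from RefSeq (GRCh38.p14), and coordinates of genes from the deposited table.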

Additional observations from a re-analysis of the deposited data

How the results depend on the processing

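Of the 45 replication genes, 24 had the same call under each of up to 17 alternatives, and 10 changed sign under at least 1. Median ratio scaling mattered most: it gave 9 replication genes higher and 23 lower, 26 other replication genes higher, and sign changes for ORC2 (0.15), GINS3 (0.26), PRIM2 (0.12), POLE (0.14), POLE2 (0.0062), PCNA (0.17) and FEN1 (0.29). Upper quartile scaling turned GINS3 (0.0037) and FEN1 (0.016). Quantile normalization left 1 replication gene higher and turned GINS3 (0.046), POLD2 (-0.057), RPA1 (-0.20) and TYMS (-0.090). By construction, median ratio and upper quartile scaling move all genes of a library together. A minimum mean FPKM of 5 left 7078 genes, of which 2401 were higher and 3246 lower. Leaving out 1 library gave 1 to 2 replication genes higher and 33 to 36 lower, and moved RPA1 between -0.038 (without control 1) and 0.070 and POLD2 between -0.041 (without control 2) and 0.055, with -0.0076 and -0.014 without shSETD2 2. Without the second library of both groups, chosen after seeing the data, the changes of POLD2 and RPA1 were -0.077 and -0.0032, and 3 replication genes were higher. The SETD2 change lay between -0.83 and -0.45 when 1 library was left out, and was -0.71 without the second library of both groups (limma, adjusted p = 0.0156). With the replicate number as a replicate block, 2 replication genes were higher and 37 lower: ORC6 and RRM2 passed (adjusted p = 0.0206 and 5.06e-04), TYMS did not (0.0558), and SETD2 did (-0.58, adjusted p = 0.0157). Over all genes same-numbered libraries did not deviate together, and not every library correlated best with its own number. For RRM2 the second library was the highest of each group, and for ORC6 and SETD2 it was the lowest of each. Whether same-numbered libraries share a batch is not given in the sources used here and was not tested.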
